A study of Mus musculus with 2 samples.

Results

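Osteoblast lineage cells are the mesenchymal cells that commit to bone, deposit a collagen matrix and mineralize it. Among the tdTomato-sorted cells of E14 mouse embryos they numbered 513 of 22086 cells, 331 in the library labelled f/f and 182 in the library labelled f/w. A cell was taken as a member when it held at least 2 UMIs (unique molecular identifiers, each standing for 1 captured transcript) over Sp7, Ibsp and Ifitm5 together, at least 2 over Runx2 and Alpl together, and under 10 over the cartilage genes Acan, Col9a1 and Matn1. These 8 genes, and every other gene of the same cells, are therefore a description of the chosen cells, and no test was made on them.

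The study crossed mice with a floxed allele of Srsf2, a splicing factor of the serine and arginine rich (SR) family, to mice with Cre recombinase under the Myf5 promoter. Trunks and limbs of decapitated, eviscerated embryos were dissociated, tdTomato-positive cells were sorted, and 1 library was made per genotype with a droplet 3′ kit. Both libraries carried Myf5-Cre and the Cre-activated tdTomato reporter, one labelled as homozygous (SRSF2f/f/Myf5-Cre/tdT) and one as heterozygous (SRSF2f/w/Myf5-Cre/tdT) for the floxed allele, and there was no library without Cre. The reporter stays on after Myf5 is switched off, so tdTomato marks cells whose ancestors used the Myf5 promoter. Neither the number of embryos behind each library nor a replicate was given.

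The targeted gene went against the titles. Over all cells that passed the filters, Srsf2 stood at 219 CPM (UMIs per 1000000) in the library labelled f/f and at 153 CPM in the library labelled f/w. Cells with skeletal muscle transcripts made up 24.4% of the first and 1.68% of the second, and the deposited summary of the first was named as wild type. Every direction between the libraries given here follows the titles as deposited, and it turns round if those titles were exchanged. Of 27766 barcodes, 22086 had at least 1000 UMIs and at most 10% of mitochondrial UMIs (12144 and 9942). No barcode was shared by members of both libraries, whereas 41 barcodes were shared among all cells that passed. Members were deeper than the other cells, with medians of 18368 and 17576.5 UMIs against 10826 and 9763, and their median mitochondrial shares were 3.61% and 3.45%.

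In the osteoblast lineage, Runx2 is the transcription factor that opens the program, and Sp7 (osterix) acts downstream of it. Ibsp encodes bone sialoprotein, an acidic matrix protein of mineralizing bone, Ifitm5 a small membrane protein of osteoblasts, and Alpl the tissue-nonspecific alkaline phosphatase that frees phosphate for mineral. Bglap, encoding osteocalcin, belongs to mature osteoblasts, and Dmp1, Phex, Mepe and Sost mark the step to osteocytes, the cells enclosed in bone.

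The RefSeq promoter windows of 4 lineage genes are shown because they carry the names by which the cells were chosen or staged: Ibsp at chr5:104299037-104299336 on the plus strand, and Bglap at chr3:88384417-88384716, Ifitm5 at chr7:140950194-140950493 and Runx2 at chr17:44814578-44814877 on the minus strand (GRCm38.p6). Each runs 5′ to 3′ on the gene's strand from 250 bases before the annotated start to 50 after it. Capitals mark the RUNX core TGTGGT or its complement ACCACA, the homeodomain core TAATTA, and the GC box GGGCGG or its complement CCGCCC, all searched on both strands.
Ibsp: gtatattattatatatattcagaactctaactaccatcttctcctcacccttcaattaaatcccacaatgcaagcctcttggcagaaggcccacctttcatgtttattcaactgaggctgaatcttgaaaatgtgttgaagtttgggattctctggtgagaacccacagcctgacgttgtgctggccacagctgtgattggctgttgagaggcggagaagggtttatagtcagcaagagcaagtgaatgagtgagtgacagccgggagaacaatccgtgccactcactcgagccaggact
Bglap: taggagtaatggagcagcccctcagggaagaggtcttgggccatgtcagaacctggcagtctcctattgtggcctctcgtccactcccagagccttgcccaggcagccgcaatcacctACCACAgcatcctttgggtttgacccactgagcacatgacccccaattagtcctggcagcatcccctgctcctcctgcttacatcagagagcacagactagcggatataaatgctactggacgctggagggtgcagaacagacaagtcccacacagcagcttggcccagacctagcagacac
Ifitm5: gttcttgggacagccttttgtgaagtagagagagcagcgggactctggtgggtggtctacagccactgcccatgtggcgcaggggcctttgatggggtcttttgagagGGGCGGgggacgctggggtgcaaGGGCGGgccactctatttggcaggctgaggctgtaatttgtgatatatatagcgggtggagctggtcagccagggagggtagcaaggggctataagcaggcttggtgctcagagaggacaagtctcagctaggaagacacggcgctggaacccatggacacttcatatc
Runx2: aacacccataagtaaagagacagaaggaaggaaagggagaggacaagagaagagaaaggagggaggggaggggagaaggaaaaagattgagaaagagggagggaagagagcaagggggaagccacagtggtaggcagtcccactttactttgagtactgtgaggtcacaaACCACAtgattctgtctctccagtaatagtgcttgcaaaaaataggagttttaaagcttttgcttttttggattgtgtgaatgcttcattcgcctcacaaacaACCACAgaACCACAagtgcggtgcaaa

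Counted from the start site, the RUNX core began at -132 in the Bglap window and at -80, 24 and 32 in the Runx2 window. The GC box began at -142 and -119 in the Ifitm5 window, and the Ibsp window held none of the 3 motifs. Among 32851 windows of the same length the RUNX core stood in 16.8%, the homeodomain core in 5.29% and the GC box in 35.7%. Of 23 osteoblast marker genes looked up, 15 had a window, of which 7 held the RUNX core, 3 the homeodomain core and 5 the GC box. Genes with several windows were counted when any window held the motif, whereas the background shares are per window, so the measures are unlike. These matches describe letters in a window and were not set against any binding data. Sp7 (chr15:102356606-102367182, minus strand) is named only.

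The genes of the rule were concentrated in the members to different degrees. Of all Ibsp UMIs in the cells that passed, 95.1% lay in members of the library labelled f/f and 87.9% in members of the library labelled f/w, and for Ifitm5 the shares were 89.2% and 81.1%. Sp7 followed with 67.2% and 45.7% and Alpl with 66.3% and 52.3%, whereas only 31.0% and 18.1% of Runx2 UMIs were in members. Runx2 was thus the least restricted of the 5 genes that brought cells in. Summed over members, Ibsp reached 20566 and 16427 CPM against 51.0 and 69.5 CPM in the other cells. Ifitm5 reached 1482 and 1308 CPM against 8.70 and 9.31, Sp7 55.6 and 41.7 CPM against 1.31 and 1.51, and Runx2 165 and 144 CPM against 17.8 and 19.9. These gaps follow from the rule.

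Droplet libraries hold free RNA, so endothelial cells, which should lack these genes, gave the background. An Ibsp UMI was found in 90.9% and 92.3% of members (median 18368 and 17576.5 UMIs) and in 23.5% and 16.6% of endothelial cells (median 12857.5 and 16706.5 UMIs). After thinning each cell to 5000 UMIs, which left out 4 and 1 members and 28 and 39 endothelial cells, the shares were 78.9% and 81.2% against 7.64% and 4.49%. For Sp7 the unthinned shares were 59.8% and 51.1% in members against 0.65% and 0.95% in endothelial cells. The rule required these genes of members, so the gap follows from it, and the endothelial shares show only that a single Ibsp UMI in a cell is not evidence of expression.

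Osteoblast markers outside the rule were higher in members throughout. Of 18 such genes 15 had enough UMIs to be measured, and all 15 were at least 2-fold higher than in the other cells in both libraries, against 2.49% of 13996 genes that were at least 2-fold higher in both libraries and 8.78% that were at least 2-fold lower. The medians of the 15 log2 ratios were 2.92 in the library labelled f/f and 2.94 in the library labelled f/w, while the medians over all 13996 genes were -0.21 and -0.25. The rule did not count these genes, but the list was chosen with earlier results of these data known. The values describe the same cells and are no independent support for their label as osteoblast lineage.

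Genes of the Dlx homeodomain family were among the higher ratios. Dlx5, which acts upstream of Sp7, stood at 49.9 and 53.2 CPM in members and at 2.65 and 3.25 CPM in the other cells, a log2 ratio of 4.24 and 4.03. Its neighbour Dlx6 had log2 ratios of 4.73 and 4.07, and Dlx3 4.26 and 3.61. Among 20 osteoblast transcription factors outside the rule, 5 were at least 2-fold higher in both libraries, including Dlx3, Dlx5, Dlx6 and Mef2c, and 2 were lower. Over all genes 2.49% were higher and 8.78% lower, so the lower count lay near the share of all genes. One of the lower ones was Twist2, which restrains Runx2, with log2 ratios of -1.73 and -1.70. The other was Lmx1b, a factor of dorsal limb mesenchyme, with only 9 and 3 UMIs in members. Homeodomain genes outside the Dlx family did not share this, as Msx1 had log2 ratios of 0.43 and -2.33 and Msx2 0.12 and -1.10. Twist1 was not lower, with log2 ratios of 0.81 and 0.67. Atf4, which is needed for late osteoblast protein synthesis, was near the other cells at -0.02 and -0.21.

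**Figure D1:**
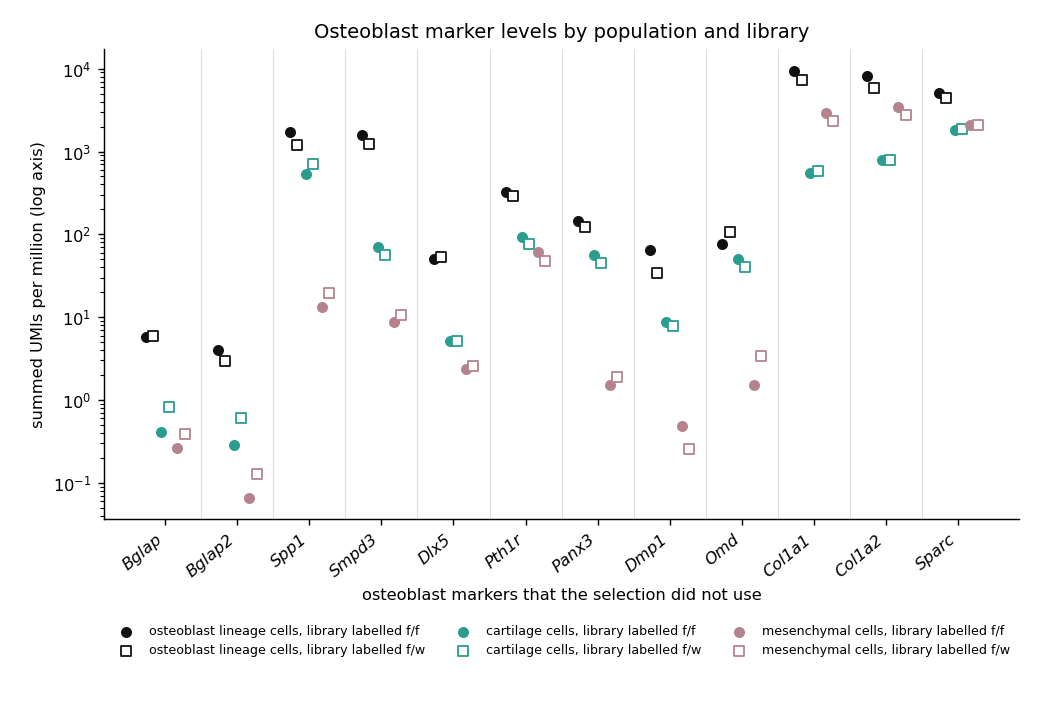
Levels in CPM (log axis) of 12 osteoblast markers outside the rule in members (black), cartilage cells (green) and mesenchymal cells (pink), each point the UMIs summed over the cells of 1 library (filled circles f/f, open squares f/w), without error bars. Smpd3 stands at 1594 and 1223 CPM in members and at 70.7 and 56.1 CPM in cartilage cells, while Panx3 and Spp1 are also present in cartilage cells.

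Enzymes and transporters of mineral made up the next group. Smpd3 encodes neutral sphingomyelinase 2, which is needed for mineralization of bone and cartilage. It stood at 1594 and 1223 CPM in members and at 25.2 and 31.6 CPM in the other cells, with 75.3% and 54.2% of all its UMIs in members. Slc13a5, the plasma membrane citrate transporter, stood at 164 and 136 CPM against 2.33 and 2.42, and Slc8a3, a sodium and calcium exchanger, at 82.8 and 62.1 CPM against 5.59 and 4.99. All 3 were far higher in members than the counting error of either library allows for. Of 10 mineralization genes outside the rule, 4 were at least 2-fold higher (Smpd3, Slc8a3, Dmp1 and Phex) and 2 were lower. Among all genes 2.49% were higher and 8.78% lower. The lower pair was the phosphate transporter Slc20a2 and Mgp, an inhibitor of mineralization, which stood at 101 and 138 CPM against 362 and 368. Enpp1, the source of the inhibitor pyrophosphate, had log2 ratios of -0.60 and -0.76, short of the 2-fold limit. Phospho1, the phosphatase of matrix vesicles, had 42 and 25 UMIs in members and was too low to be called.

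The bone matrix itself was represented by a subset of its genes. Of 19 bone matrix genes outside the rule, 9 were at least 2-fold higher in members in both libraries and 2, Chad and Fmod, were lower. Over all genes these shares were 2.49% and 8.78%. Col1a1, the main chain of type I collagen, stood at 9507 and 7317 CPM in members, at 2935 and 2319 CPM in mesenchymal cells and at 549 and 575 CPM in cartilage cells. Members held 26.9% and 19.0% of all Col1a1 UMIs. Col1a1 was thus higher in members but far from restricted to them. Spp1, encoding osteopontin, stood at 1705 and 1193 CPM in members against 542 and 707 CPM in cartilage cells and 13.4 and 19.3 CPM in mesenchymal cells. The fibrillar collagen gene Col24a1 had log2 ratios over the other cells of 3.97 and 3.45, and Sparc, a collagen-binding matrix protein, 1.88 and 1.60. Among small proteoglycans Omd (osteomodulin) had log2 ratios of 2.55 and 2.92 and Lum (lumican) 1.79 and 1.78, whereas Bgn (biglycan) with 0.69 and 0.50 and Dcn (decorin) with -1.78 and -0.96 did not pass the limit in both libraries.

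Genes of the latest stages were found in a minority of members. Dmp1 had 459 and 126 UMIs in members, 65.4 and 33.9 CPM, and Phex, an endopeptidase of phosphate balance, 25.5 and 18.6 CPM. A Dmp1 UMI was present in 23.3% and 13.2% of members and in 46.3% and 37.5% of those with at least 100 Ibsp UMIs per 10000, and a Phex UMI in 23.3% and 14.3% of members, against 0.43% and 0.87% (Dmp1) and 0.87% and 1.91% (Phex) of endothelial cells. Of 9 osteocyte genes measured, Dmp1 and Phex were at least 2-fold higher in both libraries and Fbln7 was lower. Lower calls made up 8.78% of all genes and higher calls 2.49%. Bglap had 40 and 22 UMIs in members, in 7.55% and 8.79% of them, and its near-identical neighbour Bglap2 had 28 and 11, so that reads of the pair may have been split or dropped. Sost had 13 and 9 UMIs, Mepe 9 and 1, and Fgf23 2 and 0. Osteocalcin and the osteocyte genes Sost, Mepe and Fgf23 were accordingly near the limit of what these counts can show.

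The machinery that folds and secretes type I procollagen was higher in members in part. Over all genes 2.49% were at least 2-fold higher in both libraries and 8.78% at least 2-fold lower. Of 32 genes for procollagen synthesis and secretion, 11 were higher and 0 lower, with median log2 ratios of 0.86 and 0.85. They comprised the prolyl hydroxylases P4ha1, P4ha2 and P3h1 and its partner P3h4, the chaperones Serpinh1 (HSP47) and Fkbp10, the retrieval receptor Kdelr2, the transmembrane transcription factor Creb3l1, the poly(A) polymerase Tent5a, and the processing and crosslinking genes Pcolce and Lox. Creb3l1 had the highest log2 ratios of these at 2.85 and 2.37, followed by Lox at 2.80 and 2.34 and Pcolce at 2.55 and 2.42. Of 17 osteogenesis imperfecta genes outside the rule, 9 were at least 2-fold higher and 0 lower; 6 of them are also on the secretion list, so the lists are not separate evidence.

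**Figure D2:**
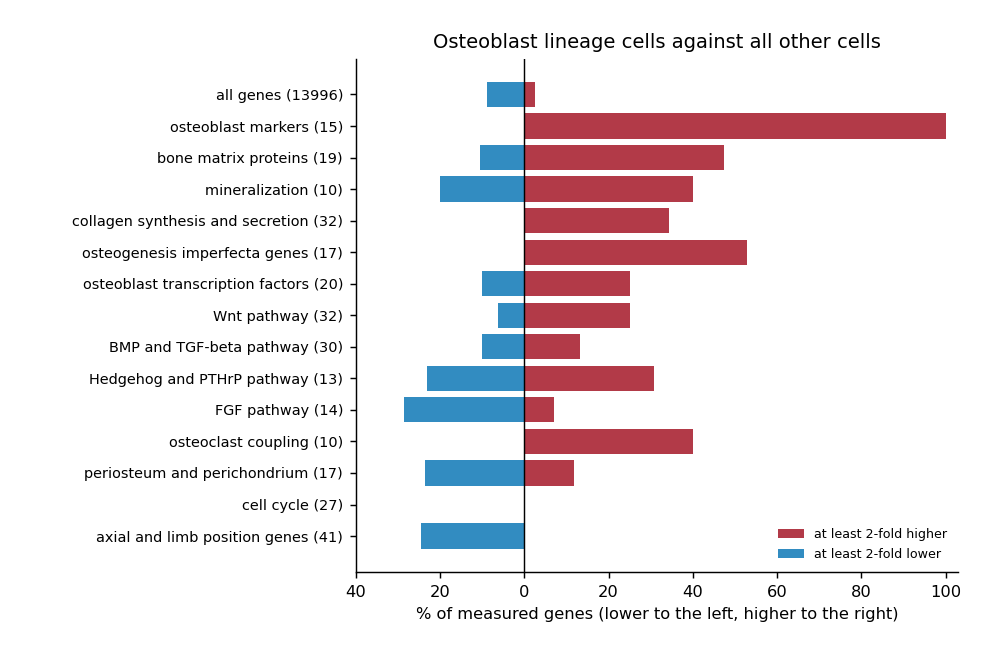
For each gene list, without the genes of the rule, the percentage of measured genes at least 2-fold higher and at least 2-fold lower in members than in other cells in both libraries. All 15 markers outside the rule were higher, against 2.49% of all genes, and no cell cycle gene reached the limit in either direction.

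The differences depended in part on the cells compared. Mesenchymal cells were defined by at least 3 UMIs over Pdgfra and Dcn, no UMI of Sp7, Ibsp or Ifitm5 and under 10 over the cartilage genes (2692 and 1840 cells), and cartilage cells by at least 10 UMIs over Acan, Col9a1 and Matn1 (2058 and 2036 cells). Of the osteoblast markers outside the rule, 14 of 14 measured were at least 2-fold higher than in mesenchymal cells and 13 of 15 than in cartilage cells, while over all genes measured 2.9% were higher and 7.76% lower against mesenchymal cells and 4.3% higher and 6.28% lower against cartilage cells. Of the 32 procollagen genes 7 were higher and 0 lower than in mesenchymal cells, and 6 were higher and 2 lower than in cartilage cells. The 2 markers that missed the limit against cartilage cells were Spp1 and Omd. Panx3, a channel protein of prehypertrophic chondrocytes and osteoblasts, stood at 144 and 123 CPM in members and 56.8 and 45.5 CPM in cartilage cells, but at 1.50 and 1.88 CPM in mesenchymal cells. Panx3, Spp1 and the Pth1r receptor were thus shared with cartilage more than with mesenchyme.

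Genes of the Wnt pathway, which drives osteoblast commitment, were higher at several levels. Of 32 Wnt genes, 8 were at least 2-fold higher in members in both libraries and 2 were lower. The shares over all genes were 2.49% and 8.78%. The ligand Wnt10b stood at 15.3 and 7.80 CPM against 0.70 and 0.82, and the transcription factor Tcf7 at 84.7 and 74.7 CPM against 3.89 and 9.35. The secreted inhibitors Dkk1, Notum and Sfrp4 were higher as well, with Dkk1 at 27.7 and 26.6 CPM against 1.97 and 2.02. The membrane proteins Lrp4, Lgr6 and Kremen1 completed the group. Lef1, a factor of the same family as Tcf7, went the other way with log2 ratios of -1.01 and -1.13, as did Sfrp2 with -1.94 and -1.39. Against mesenchymal cells only 3 of 28 measured Wnt genes were higher and 9 were lower, so the count depends on the cells compared.

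Hedgehog and parathyroid hormone-related protein genes, which link cartilage to bone collar formation, also differed. Of 13 measured, 4 were higher and 3 lower, against 2.49% and 8.78% of all genes. The Hedgehog receptor and target Ptch1 stood at 249 and 231 CPM in members against 71.2 and 85.6, its target Gli1 at 34.5 and 30.9 CPM against 14.8 and 13.9, and the decoy receptor Hhip at 79.7 and 67.8 CPM against 9.95 and 10.6. Pth1r, the receptor for the hormone, stood at 324 and 291 CPM against 43.8 and 37.5. The receptors' ligands were not higher in members, with log2 ratios of -0.12 and -0.29 for Ihh and a level at least 2-fold lower for Pthlh. The coreceptors Gas1 and Cdon were at least 2-fold lower.

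BMP and FGF genes were more mixed. Of 30 BMP and TGF-beta genes, 4 were higher in members and 3 lower, the latter share being close to the 8.78% of all genes. The higher ones were Bmp3, a ligand that dampens BMP signalling, at 38.6 and 42.2 CPM against 7.41 and 8.57, the pseudoreceptor Bambi, the signal transducer Smad9, and Tgfb1, while Bmp6, Gdf5 and the receptor Bmpr1b were lower. Of 14 FGF genes Spry4, a feedback inhibitor, was higher with log2 ratios of 1.08 and 1.05, and Fgf2, Fgfrl1, Dusp6 and Etv4 were lower.

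Genes by which osteoblasts govern osteoclasts differed in part. Of 10 coupling genes, 4 were higher in members and 0 lower, where 2.49% of all genes were higher and 8.78% lower. Tnfsf11, encoding the osteoclast differentiation signal RANKL, had log2 ratios of 2.15 and 1.52. Its decoy receptor Tnfrsf11b was not higher, with log2 ratios of -0.79 and -0.47. The collagenase gene Mmp13, the membrane protease gene Mmp14 and the gelatinase gene Mmp9 were the other 3, with Mmp9 at 25.7 and 33.9 CPM against 2.83 and 6.60. A single cell of each library held 100 of the 180 and 56 of the 126 Mmp9 UMIs, so its level rests on few cells. For Mmp13 a single cell of each library held 23 of the 57 and 48 of the 75 UMIs. Mmp9 is also made by osteoclasts, and it was the single one of 6 osteoclast genes that was at least 2-fold higher in both libraries.

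Some leading genes are on no bone list. By the fixed rule of the 15 highest ratios, taken in whichever library was lower, the genes outside the rule and the lists above included, beside Slc13a5, the collagen gene Col22a1, the nucleotide hydrolase gene Entpd3, the guidance factor Sema3b, the calcium-binding protein gene Hrc and the unnamed transcript 9130024F11Rik. Col22a1 stood at 138 and 93.0 CPM in members against 1.94 and 1.82, and Entpd3 at 37.9 and 33.1 CPM against 0.48 and 0.70. Ptprc (CD45), which defines leukocytes, had 10 and 11 UMIs in all members. None of 8 immune genes was at least 2-fold higher in members in both libraries, and 3 were lower. Over all genes 2.49% were higher and 8.78% lower, so none higher among 8 lies near the share of all genes. The lowest ratios belonged to the cartilage genes Snorc, Cnmd, Col9a3, Col2a1 and Hapln1, with Col2a1 at 174 and 226 CPM against 2405 and 2410. The limit on Acan, Col9a1 and Matn1 in the rule bears on these 5.

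Among markers of other tissues calls were mostly lower. Of 14 skeletal muscle genes 12 were at least 2-fold lower in members in both libraries, as were 7 of 8 erythroid and 8 of 8 endothelial genes. Over all genes 8.78% were lower. Lower calls were fewer among Schwann (3 of 8), pericyte (3 of 7, while Ndufa4l2 was higher), epithelial (2 of 8) and neural genes (0 of 8). The cartilage list was lower for 10 of 18 genes and higher for Pth1r and Mef2c. Counted per cell, however, at least 3 UMIs of the pericyte list were found in 47.4% and 35.2% of members against 20.0% and 19.1% of the other cells, of the neural list in 32.6% and 43.4% against 16.2% and 26.3%, and of the immune list in 11.5% and 9.89% against 1.66% and 8.67%. Members were the deeper cells, and the part of depth in these shares was not tested.

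Of 27 cell cycle genes none reached 2-fold in both libraries, with median log2 ratios of -0.75 and -0.47. Of 41 genes of limb and axial position, 0 were higher and 10 lower, including Hoxa10, Hoxa11, Hoxd9 and Pitx1, where 8.78% of all genes were lower. Of 11 SR splicing factor genes 0 reached 2-fold either way, with medians of -0.38 and -0.37. Of 13 stress genes 0 did so, and of 12 p53 target genes 1 was lower, which is near the share of all genes. Of 17 periosteal and perichondrial genes 2 (Thbs2 and Gli1) were higher and 4 lower than in the other cells, against 2.49% and 8.78% of all genes. Compared with mesenchymal cells 0 were higher and 7 lower, where the shares over all genes were 2.9% and 7.76%.

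Members differed among themselves over a wide range of Ibsp. The median cell had 35.7 and 24.7 Ibsp UMIs per 10000 of its own UMIs. The lowest 10% of cells had at most 0.378 and 0.557 and the highest 10% at least 549 and 449, with maxima of 1252 and 870. The 10% of cells with the most UMIs of each gene held 42.6% and 50.1% of all Ibsp UMIs of members, 70.0% and 68.6% of Spp1 UMIs and 83.7% and 95.2% of Dmp1 UMIs. Summed levels of these genes therefore rest on a minority of cells.

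**Figure D3:**
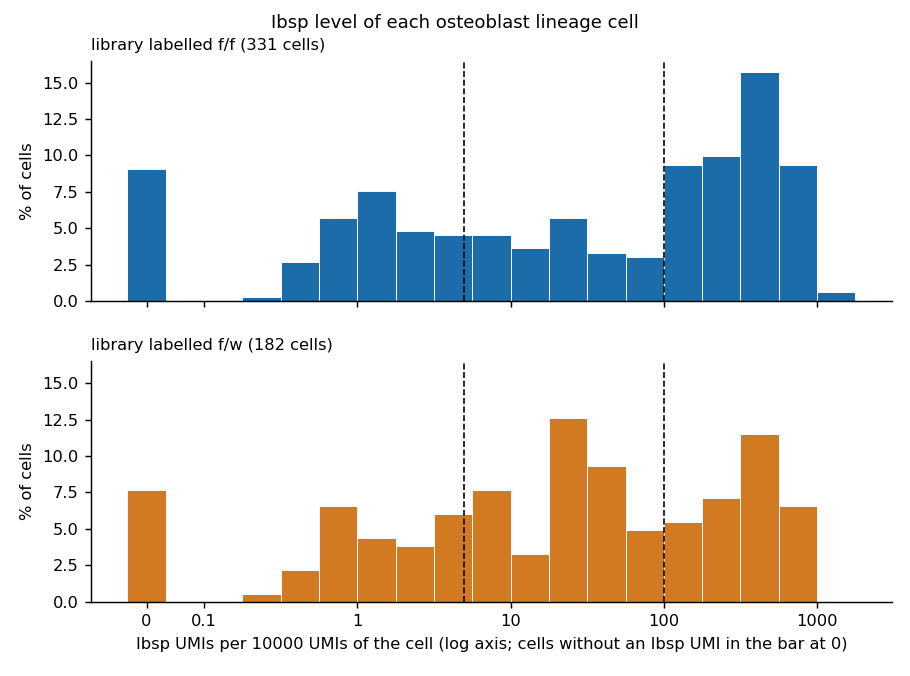
Percentage of members (vertical axis) by their Ibsp UMIs per 10000 of their own UMIs (log axis), by library, with dashed lines at the limits of 5 and 100 that divide the members. The medians are 35.7 in the library labelled f/f and 24.7 in the library labelled f/w, and values reach 1252 and 870.

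For a description of this range, members were divided at 5 and 100 Ibsp UMIs per 10000, limits chosen after the values were seen. The Ibsp-low group held 113 and 57 cells, the middle group 69 and 69, and the Ibsp-high group 149 and 56. Between the Ibsp-high and the Ibsp-low groups 5.08% of 7819 genes were at least 2-fold higher in both libraries and 4.54% at least 2-fold lower. Of the 15 osteoblast markers outside the rule, 12 were higher in the Ibsp-high group and 0 lower. Ibsp-low cells were not without the program: Smpd3 was found in 63.7% and 49.1% of them, against 8.48% and 7.47% of endothelial cells.

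Ratios of Ibsp-high over Ibsp-low cells differed between genes of the lineage. Runx2, Sp7, Alpl and Ifitm5 belong to the rule, and a cell low in Ibsp could enter only with UMIs of Runx2 or Alpl and, where it had under 2 Ibsp UMIs, of Sp7 or Ifitm5, so the selection shapes their values and their order. Runx2 was not higher in Ibsp-high cells, with log2 ratios of Ibsp-high over Ibsp-low cells of -0.04 and -0.54, and Sp7 differed little, with 0.90 and 0.65. Alpl had 1.40 and 1.47, Smpd3 2.84 and 2.96 and Ifitm5 3.58 and 3.67. Of these Smpd3 is the gene that the rule did not use. Dmp1, also outside the rule, had 0 UMIs in the Ibsp-low cells of either library, where 3 UMIs is the limit that a count of 0 allows, and 400 and 122 UMIs in the Ibsp-high cells. Col1a1 stood at 2841 and 2619 CPM in Ibsp-low cells, near its level in mesenchymal cells, and at 14903 and 13753 CPM in Ibsp-high cells. The procollagen machinery went with it, as 19 of 31 measured genes were higher in Ibsp-high cells and 2 were lower. Over all genes these shares were 5.08% and 4.54%.

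**Figure D4:**
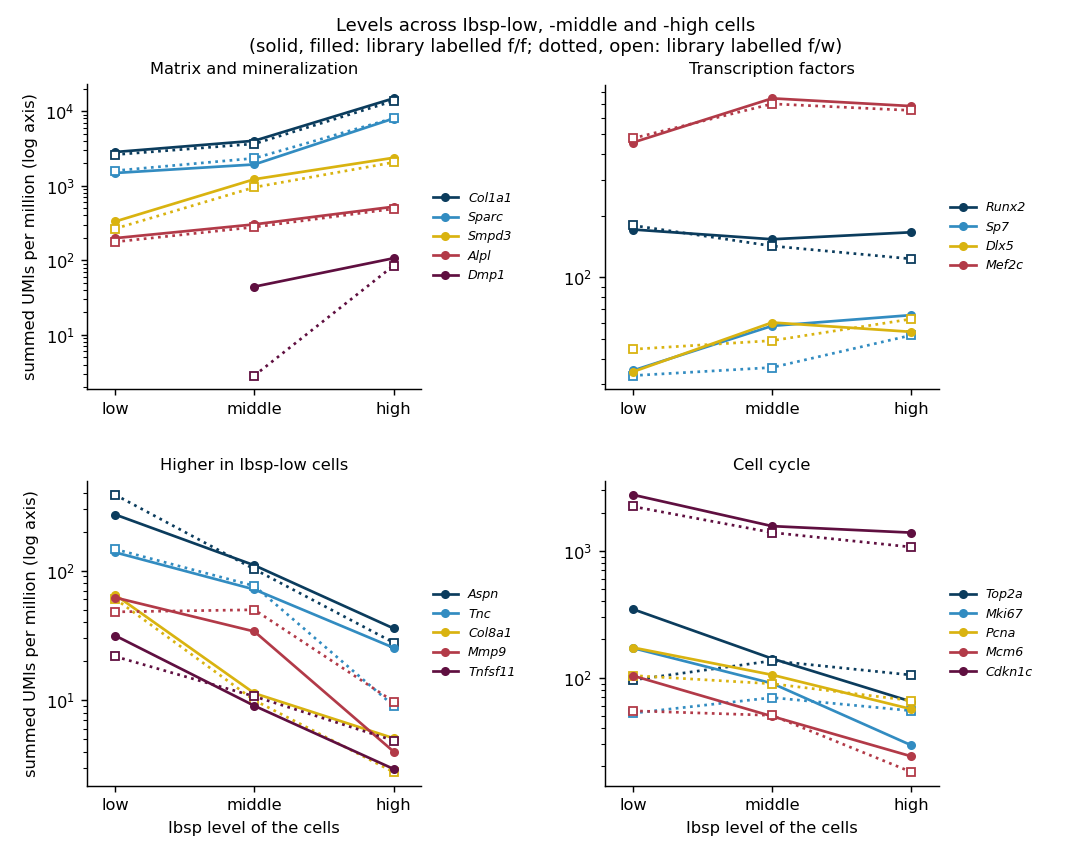
Levels in CPM (log axis) of lineage genes in Ibsp-low, middle and Ibsp-high members, each point the UMIs summed over the cells of 1 library (solid f/f, dotted f/w), without error bars and with no point at 0 UMIs. Runx2 does not climb, Col1a1 climbs from 2841 and 2619 to 14903 and 13753 CPM, and Dmp1 has no UMI in Ibsp-low cells.

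The genes that led the Ibsp-high group were Slc13a5, Col22a1, Col13a1, Cgref1, Frzb, Sema3b, Pcsk6, Adgrd1, Kazald1 and Loxl4. Slc13a5 stood at 297 and 312 CPM in Ibsp-high cells and at 4.13 and 1.14 CPM in Ibsp-low cells. Frzb, a secreted Wnt antagonist, stood at 50.4 and 37.5 CPM against 1.55 and 1.14, and Dkk1 at 42.7 and 40.3 CPM against 6.71 and 1.14. The transmembrane collagen gene Col13a1 and the matrix crosslinker Loxl4 were part of the same group. At the other end, the leading genes of the Ibsp-low group included Col8a1, Scube2, Samsn1, Ifitm1, Aspn, Pdgfrb, Egfr, Dipk1b and Tnc. Aspn (asporin) stood at 271 and 385 CPM in Ibsp-low cells and at 35.8 and 27.8 CPM in Ibsp-high cells, and the growth factor receptor Pdgfrb at 39.7 and 27.4 CPM against 3.20 and 4.17. Tnfsf11 and Mmp9 also sat on this side, with log2 ratios of -3.42 and -2.16 for Tnfsf11 and -3.95 and -2.30 for Mmp9, most of whose UMIs lay in a pair of cells of each library. Among 13 measured periosteal and perichondrial genes 6 were higher in Ibsp-low cells and 1 in Ibsp-high cells. The shares over all genes were 4.54% and 5.08%. Samsn1 had 6 UMIs or fewer in each group once members with transcripts of another lineage were left out, so its place rests on those members.

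Proliferation did not follow Ibsp alike in both libraries. Mki67, a marker of cycling cells, stood at 171 CPM in Ibsp-low and 29.4 CPM in Ibsp-high cells of the library labelled f/f, and at 52.5 and 54.9 CPM in the library labelled f/w. Top2a, a mitotic topoisomerase, stood at 347 and 64.9 CPM in the first and at 96.0 and 105 CPM in the second. After thinning, Mki67 was found in 34.5% of Ibsp-low and 4.73% of Ibsp-high cells of the first and in 10.5% and 14.3% of the second. Median log2 ratios of Ibsp-high over Ibsp-low cells over 26 cell cycle genes were -1.75 and -0.31. With 1 library per label this difference was not tested. In Ibsp-low cells Mki67 was higher in the library labelled f/f by 1.70 on the log2 scale (95% counting interval 1.26 to 2.18). Ibsp-high cells went the other way, with log2 ratios of -0.90 (-1.33 to -0.47) for Mki67 and -0.70 (-0.99 to -0.39) for Top2a.

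The share of members also differed between the libraries. They made up 2.73% of the cells that passed in the library labelled f/f (exact 95% interval 2.44 to 3.03) and 1.83% in the library labelled f/w (1.58 to 2.11), a log2 ratio of 0.57 (0.32 to 0.83). With muscle-transcript cells left out of the denominator, which differ in number between the libraries, it was 0.82 (0.55 to 1.08). With the rule applied after thinning each cell to 5000 UMIs, it was 0.35 (0.02 to 0.67). These intervals cover counting error only, not the spread between embryos, for which there is no measure here. Ibsp-high cells were 45.0% of members in the library labelled f/f (39.6 to 50.6) and 30.8% in the library labelled f/w (24.2 to 38.0). The split between low and middle cells moved with it, as middle cells were 20.8% and 37.9% of members.

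In members Srsf2 had 1288 and 514 UMIs, 184 CPM (174 to 194) in the library labelled f/f and 138 CPM (127 to 151) in the library labelled f/w. The log2 ratio of 0.41 (0.26 to 0.56) lay near that of the other cells, 0.52, and like it went against the titles. By Ibsp group it was 0.82 (0.51 to 1.13) in Ibsp-low cells, 0.56 (0.31 to 0.81) in middle cells and 0.27 (0.02 to 0.53) in Ibsp-high cells. Counted without introns, 3′ UMIs do not show whether the floxed part of a transcript was present. Mettl23, whose gene neighbours Srsf2, had 221 and 55 UMIs in members, a log2 ratio of 1.09 (0.66 to 1.54), against 0.71 in the other cells.

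Few genes differed by 2-fold between the libraries within members. Of 7819 genes, 0.435% were at least 2-fold higher in the library labelled f/f and 0.857% at least 2-fold lower, 1.29% in all, and these counts changed with the cells of mixed content described next. Of the 15 osteoblast markers outside the rule 0 were higher and 1, Mmp13, was lower, with 48 of its 75 UMIs in the library labelled f/w coming from 1 cell. The median log2 ratio of the 15 was 0.35, and that of all genes 0.07. Ibsp had a ratio of 0.32 (0.31 to 0.34), Ifitm5 0.18, Sp7 0.42, Runx2 0.20 and Alpl 0.22, values that the rule shapes. Outside the rule Col1a1 had 0.38, against 0.39 in the other cells, Smpd3 0.38, Spp1 0.51 and Dmp1 0.95 (0.66 to 1.25). Omd went the other way at -0.50 (-0.69 to -0.31), and Dlx5 did not differ beyond counting error at -0.09 (-0.35 to 0.17).

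Among Ibsp-high cells most of these marker differences were smaller. For 13 of the 15 markers the log2 ratio there was closer to 0 than over all members. In Ibsp-high cells Col1a1 had a log2 ratio of 0.12 (0.09 to 0.14), Smpd3 0.20 (0.14 to 0.26), Sparc -0.01 (-0.05 to 0.02), Pth1r 0.02 (-0.12 to 0.16) and Dmp1 0.33 (0.04 to 0.64). Sparc, Pth1r and Panx3 (0.09, -0.11 to 0.29) did not differ beyond counting error there. Kazald1 had 0.41 (0.16 to 0.67) there against 0.78 over all members, Col24a1 0.59 (0.30 to 0.89) against 0.94, Adgrd1, an adhesion receptor, 1.22 (0.62 to 1.88) against 1.57, and Omd -0.36 (-0.63 to -0.08) against -0.50. In middle cells Dmp1 had 59 and 4 UMIs and Spp1 a ratio of 1.12 (1.03 to 1.22). The markers went both ways in middle cells, where Col1a1 at 0.14 and Panx3 at 0.01 lay closer to 0 than over all members. Omd at -0.80, Pth1r at 0.34 and Phex at 2.45 lay farther from it. In Ibsp-low cells Col1a1 had 0.12, whereas Omd had -0.98 and Spp1 -0.60. What part the unequal share of Ibsp-high cells has in the ratios over all members was not tested further.

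**Figure D5:**
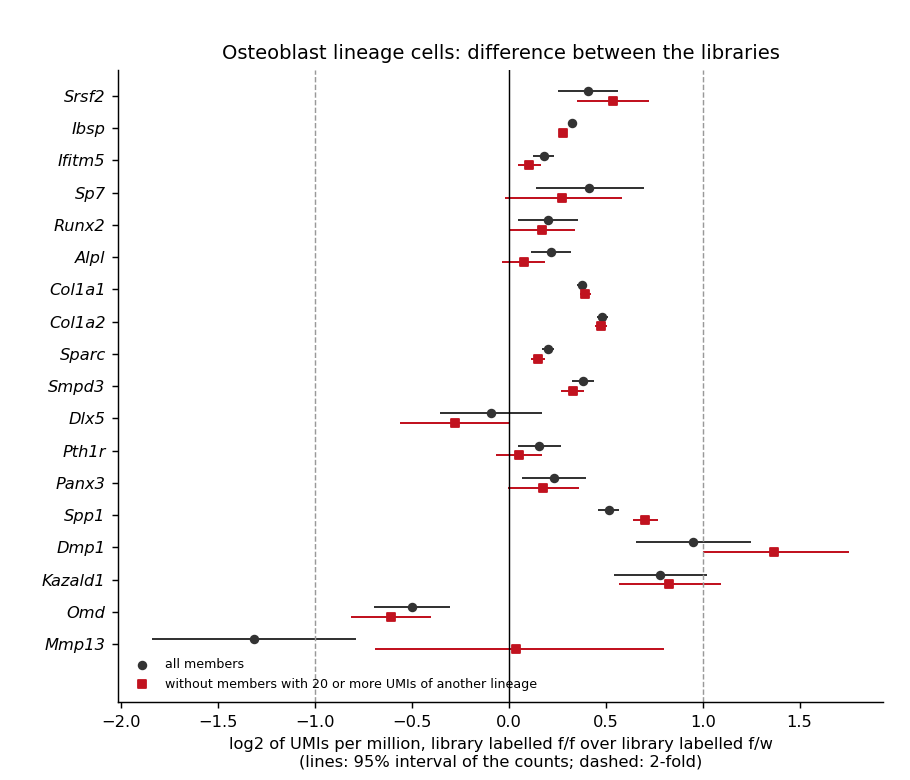
Log2 ratio of the library labelled f/f over the library labelled f/w for osteoblast genes in members, with all members and without those holding at least 20 UMIs of another lineage, and exact 95% counting intervals. Most values lie between 0 and 1, Omd lies at -0.50, and Mmp13 moves from -1.31 to 0.04 when the mixed cells are left out.

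Some members carried transcripts of another lineage. With at least 20 UMIs of any 1 of 7 lists (endothelial, immune, neural, Schwann, epithelial, skeletal muscle and erythroid) as the limit, set after the values were seen, 38 and 31 members qualified. Neural genes accounted for 15 and 14 of them, Schwann genes for 10 and 5 and muscle genes for 9 and 2. In the library labelled f/w, 4 members each held at least 393 UMIs over the mast cell genes Cma1, Tpsb2, Hdc and Cpa3 together. With Cyp11a1, these genes had the 5 lowest ratios between the libraries, with Cma1 at 7 and 1246 UMIs. Doublets had not been removed, and a droplet with more than 1 cell and a cell with a mixed program cannot be told apart. Without these members 293 and 151 were left, and 0.597% of 6873 genes were at least 2-fold higher and 0.175% at least 2-fold lower in the library labelled f/f, 0.771% in all, so that the balance of directions turned. Dmp1 then had a log2 ratio of 1.37 (1.01 to 1.75) and Phex 1.20, against 0.46 over all members, and these were the 2 of 14 markers past 2-fold. Srsf2 had 0.54 (0.36 to 0.72).

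The 5 genes with the highest ratios between the libraries differed in how many cells carried them. Acp5, the osteoclast phosphatase, had 261 and 13 UMIs, 237 of them in 1 cell. Ccdc163 had 129 and 9 UMIs, with 55 and 27 in the top 2 cells, and Tnnt2, a troponin of muscle, had 91 UMIs in 51 cells against 12 in 9 and was also higher in the other cells at 117 against 9.39 CPM. Gfod2, with a log2 ratio of 1.70, had 208 UMIs in 54 cells, 48 of them in the top cell, against 34 in 21. Adgrd1 was spread most evenly of the 5, with 174 UMIs in 94 cells against 31 in 23 and at most 8 in 1 cell, a ratio of 1.57 (1.02 to 2.17) and 1.46 without mixed members. With mixed members left out the 5 highest were Ccdc163, Actc1, Col10a1, Gfod2 and Syne3 and the 5 lowest Ccl21a, Atpaf2, Pbld1, Cwc22 and Rpl39l. The hypertrophic collagen gene Col10a1 had a ratio of -0.00 over all members and 2.32 without the mixed ones, with 158 of 220 and 95 of 117 UMIs in 1 cell of each library. The symbol Ccl21a belongs to more than 1 gene identifier, and Cwc22 also differed in the other cells at 22.1 against 68.9 CPM. The heat shock genes Hspa1a and Hspb1 had ratios of -1.20 and -1.22 in members and -0.94 and -0.50 in the other cells.

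The edges of the rule were not alike. Of 1535 cells with at least 2 UMIs over Sp7, Ibsp and Ifitm5, 738 also had at least 2 over Runx2 and Alpl. Among the cells under the cartilage limit 601 were left out for having fewer, and Smpd3, which the rule does not use, stood at 20.3 CPM in them. Of the 738, 225 were left out by the cartilage limit, with Smpd3 at 394 CPM, Col2a1 at 9963 CPM and Col1a1 at 1410 CPM. Members with exactly 2 UMIs over the first 3 genes numbered 68 and had Smpd3 at 107 CPM, and the 234 cells with exactly 1 that met the other conditions had 26.2 CPM, while all members together had 1465 CPM. Likewise 48 members had exactly 2 UMIs over Runx2 and Alpl, with Smpd3 at 229 CPM, and 86 cells outside had exactly 1, with 33.3 CPM. Cells with 7 to 9 cartilage UMIs inside the rule numbered 23 with Smpd3 at 769 CPM, and cells with 10 to 12 outside it numbered 19 with 496 CPM. The limit on Runx2 and Alpl therefore divided cells of unlike Smpd3, whereas the cartilage limit cut through cells that still held it.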

How the data were processed

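Cells of trunks and limbs were counted with a droplet 3′ v3.1 kit and Cell Ranger. The deposited counts are UMIs per gene and barcode in 1 matrix of both libraries, which the authors aggregated after down-sampling to like depth. The matrix header names Cell Ranger 5.0.0 with an mm10 reference and no introns, while the processing notes list Cell Ranger 3.1.0, STAR, Seurat 3.1.1 and mm10. Barcode suffixes were matched to samples by the cell numbers (15268 and 12498) in the deposited summaries. Whole-matrix totals were 156093779 and 128116615 UMIs. Sequencing saturation was 39.5% and 45.9%.

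Barcodes with at least 1000 UMIs and at most 10% mitochondrial UMIs were kept. Doublets were not removed, and no upper limit was set. UMIs were summed over cells per library and given as CPM of the summed total, with exact Poisson intervals, exact Clopper-Pearson intervals for shares and exact intervals of the split of counts for ratios (95%), all covering counting error only. With 1 library per label no test was made. A gene was called at 2-fold, among genes with at least 100 UMIs over the cells of each comparison, and, between cell sets, in both libraries. Cells were thinned to 5000 UMIs for shares of cells with a UMI. The counts are 3′ tags, so levels were not compared between genes.

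The members and the 29 gene lists were chosen with earlier results of these data known. Named genes were those on the lists, the 15 highest and 5 lowest ratios of members to other cells, the 5 highest and lowest between libraries, and the 10 highest and lowest between Ibsp groups; some genes that the rule names are not reported here. The planned split of members by Sp7 alone held 4 and 2 cells and was replaced by the Ibsp groups. These, the limit of 20 UMIs of another lineage and the naming of Smpd3 at the edges of the rule were chosen after seeing the data. The script was tested on simulated data. Promoter windows came from RefSeq (GRCm38.p6) and gene positions from the mm10 annotation. Python 3.11.15, NumPy 2.4.6, SciPy 1.17.1, pandas 2.3.3 and matplotlib 3.10.9 were used.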

Additional observations from a re-analysis of the deposited data

Results flagged for a closer look

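Acp5, which encodes the tartrate-resistant acid phosphatase of osteoclasts, went opposite ways in the libraries. In the library labelled f/f its log2 ratio of members over the other cells was 3.35, and in the library labelled f/w it was -1.52, a difference of 4.86 that was not tested because each label has 1 library. A single member of the library labelled f/f held 237 of the 261 UMIs, and without members carrying at least 20 UMIs of another lineage the log2 ratio between the libraries was 0.41.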

How the results depend on the processing

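No paired analysis was possible because each label has 1 library. The log2 ratio of the share of members ranged from 0.35 to 0.82 over 12 alternatives and kept its direction in each. That of Srsf2 in members was 0.21 with under 3 UMIs over Acan, Col9a1 and Matn1 and 0.25 without members under 5 Ibsp UMIs per 10000, and kept its direction. Genes past 2-fold between the libraries numbered 101 (34 higher, 67 lower), but 53 without members holding at least 20 UMIs of another lineage (41 higher, 12 lower), 664 at a minimum of 20 UMIs per gene (307 and 357) and 16 at 500 UMIs (1 and 15). By the mean of each cell's own CPM 56 were higher and 65 lower, and without members holding at least 3 UMIs of another lineage 55 and 13. Genes past 2-fold between members and the other cells numbered 1577, but 2730 and 2571 without members holding at least 3 and at least 20 UMIs of another lineage, 2500 at 20 UMIs per gene and 870 at 500. Members that entered through Sp7 alone were 1.17% at full depth and 10.0% after thinning to 5000 UMIs. The causes were not tested, except that a lower minimum tests more genes. The alternatives with 20 UMIs of another lineage and with 5 Ibsp UMIs per 10000 were chosen after seeing the data. Depth limits Sost, Mepe, Fgf23, Wnt1 and Bglap, with at most 40 UMIs each in the members of a library.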
